A study of Homo sapiens with 12 samples.

Results

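DKK1, a secreted antagonist of Wnt signalling, was examined in HuH-7 cells together with 9 other genes of the pathway: AXIN2, LGR5, NKD1, TCF7, LEF1, CTNNB1, RNF43, SP5 and TBX3. The 10 genes were chosen by name, with earlier results of these arrays known, and every gene probe of the array that carries one of the names was taken. They hold 19 of the 41000 gene probes, and 17 of these, covering all 10 of 29123 gene names, were bright enough to enter the comparison. HuH-7 is an established line from a human hepatocellular carcinoma, and the cells of all 3 groups carry the same mutant p53, Y220C. Cells received SLMP53-2, a compound studied as a reactivator of mutant p53, at 28 µM or at 42 µM, or the solvent DMSO alone, and RNA was taken after 24 h. Each group holds 4 biological replicates, each on its own one-colour array, 12 arrays on 5 slides. The titles and the treatment protocol give the higher dose as 42 µM, whereas the treatment label of the same arrays reads 48 µM. It is called 42 µM here. A single cell line was treated, and no cells without p53 were on the arrays.

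Wnt proteins bind frizzled receptors and the coreceptors LRP5 and LRP6 and thereby keep β-catenin, the product of CTNNB1, from being degraded. Stable β-catenin enters the nucleus and activates genes together with the DNA-binding TCF and LEF factors. Several of the activated genes act back on the pathway: AXIN2, NKD1 and RNF43 restrain it inside the cell or at the membrane, and DKK1 leaves the cell and blocks LRP5 and LRP6. In liver the pathway patterns metabolic zones around the central vein, and it is often activated in hepatocellular carcinoma.

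TCF and LEF factors recognise a short DNA core, and 2 promoters are shown because DKK1 and SP5 had the largest differences among the 10 genes. Each sequence is the 250 bases before the RefSeq transcription start in GRCh38.p14, on the plus strand, and capitals mark every CAAAG or its reverse complement CTTTG, the short form of the core. The DKK1 window is chr10:52314031-52314280 and the SP5 window is chr2:170715087-170715336.

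DKK1: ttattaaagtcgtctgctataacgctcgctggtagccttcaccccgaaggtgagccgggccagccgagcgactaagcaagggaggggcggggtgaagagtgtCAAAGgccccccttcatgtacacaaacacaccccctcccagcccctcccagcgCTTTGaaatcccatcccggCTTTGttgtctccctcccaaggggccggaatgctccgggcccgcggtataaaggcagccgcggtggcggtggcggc

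SP5: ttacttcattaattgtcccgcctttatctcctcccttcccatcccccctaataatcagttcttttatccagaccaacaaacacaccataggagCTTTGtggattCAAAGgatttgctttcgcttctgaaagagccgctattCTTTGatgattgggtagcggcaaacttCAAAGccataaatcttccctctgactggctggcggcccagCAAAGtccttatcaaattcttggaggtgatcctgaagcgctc

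The DKK1 window held the short core at 3 places and the longer core ATCAAAG or its reverse complement CTTTGAT at none. In the SP5 window the short core stood at 5 places, of which 1 belonged to the longer core, beginning 109 bases before the start. Promoter windows of 6 of the 10 genes were at hand, 8 windows in all, and the longer core was in 1 of them. The short core was in 6 of the 8. Among 35116 RefSeq windows of the same length, 2.26% held the longer core and 42.1% the short one. These matches describe the letters and were not tested for binding. AXIN2, LGR5, NKD1 and TBX3 had no window.

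Values are normalized log2 intensities, on which a difference of 1 is a 2-fold change, and they are compared only within a probe, since probes differ in brightness for reasons other than the amount of RNA. A gene counts as past the limits when limma's adjusted p lies below 0.05 and the log2 difference is at least 0.6 in size. For the 10 genes this is a description, because they were chosen with these contrasts known. Some probes are said below to have no overlap between a dose and DMSO. The share of all probes without overlap is not given here, so this too is a description. Between 65.0% and 85.0% of gene spots were well above background on the 12 arrays. Of 8 hepatocyte markers, 7 were detected on all arrays and TTR on 11. A spot dropped for an outlier flag counts as not detected, and TTR values ran from 12.4 to 14.5. The leukocyte gene PTPRC was detected on none, while CD3E, CD14, COL1A2 and VWF, markers of leukocytes, fibroblasts and endothelium, were detected on all. One array stood apart from its group. Over the 885 probes called at 42 µM, the median shift from DMSO in the direction of the call was 0.705, 0.894 and 0.744 on 28 µM replicates 1, 2 and 3, and 0.137 on replicate 4. The DKK1 difference and the calls at 28 µM are therefore also given without that array. Other values at 28 µM include it unless stated. Since it was picked for lying near DMSO, leaving it out favours larger differences from DMSO by construction. Leaving it out likewise favours smaller differences between the doses. Results without that array are a description.

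DKK1 mRNA was lower in treated cells and had the largest difference of the 10 genes at either dose. Its single probe, A_23_P24129 at hg19 chr10:54076687-54076746, read 10.98, 11.55, 11.44 and 11.68 on the DMSO arrays. At 28 µM it read 9.91, 9.88, 10.06 and 11.44, and at 42 µM 8.60, 8.91, 9.97 and 10.18, replicates 1 to 4 in each case. All 4 arrays at 42 µM lay below all DMSO arrays, with a mean of 9.41 ± 0.78 (SD, n = 4) against 11.41 ± 0.31 (SD, n = 4). The log2 difference was -2.00 (SE 0.39), which is 4.00-fold lower. At 28 µM the mean was 10.32 ± 0.75 (SD, n = 4), a difference of -1.09 (SE 0.39), or 2.13-fold lower. The array of replicate 4 lay within the DMSO range and the other 3 below it, and without replicate 4 the difference at 28 µM was -1.46. The doses differed by -0.91 (SE 0.39), and their arrays overlapped. Replicate 4 at 28 µM, at 11.44, widened this gap, since the other arrays of that dose read 9.88 to 10.06. In RNA of whole cultures, fewer expressing cells and less RNA per cell cannot be told apart.

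**Figure D1:**
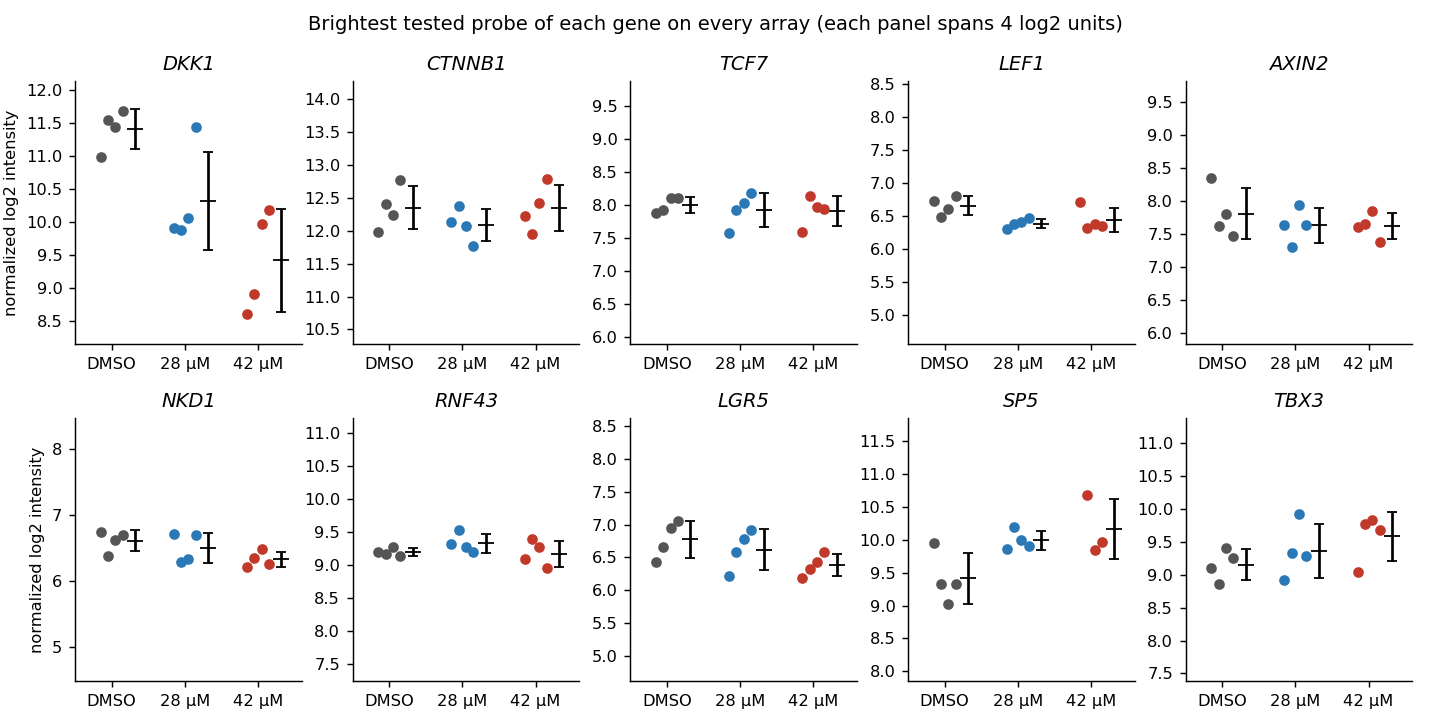
Normalized log2 intensity of the brightest tested probe of each gene on every array, one point per array, for DMSO, 28 µM and 42 µM; the dash and bar beside each group are its mean and SD (n = 4, and n = 3 for SP5 at 42 µM). Every panel spans the same 4 log2 units. In the DKK1 panel all points at 42 µM lie below those of DMSO, and replicate 4 at 28 µM sits at 11.44, within the DMSO range.

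The difference of DKK1 at 42 µM did not rest on one slide. Groups share slides in part, 3 slides holding a DMSO array with one at 42 µM and 3 a DMSO array with one at 28 µM. Within slides 2, 4 and 5 the difference of 42 µM from DMSO was -3.09, -2.53 and -1.58. At 28 µM it was -0.92 within slide 1, -1.78 within slide 2 and -0.01 within slide 4, the slide of replicate 4. Between the doses DKK1 was lower at 42 µM within slides 2 and 4, by -1.31 and -2.53, and higher within slide 3, by 0.30. With slide as a block in the model the differences were -2.14 (SE 0.42) at 42 µM and -1.04 (SE 0.42) at 28 µM, and DKK1 was then not past the limits at 42 µM.

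**Figure D2:**
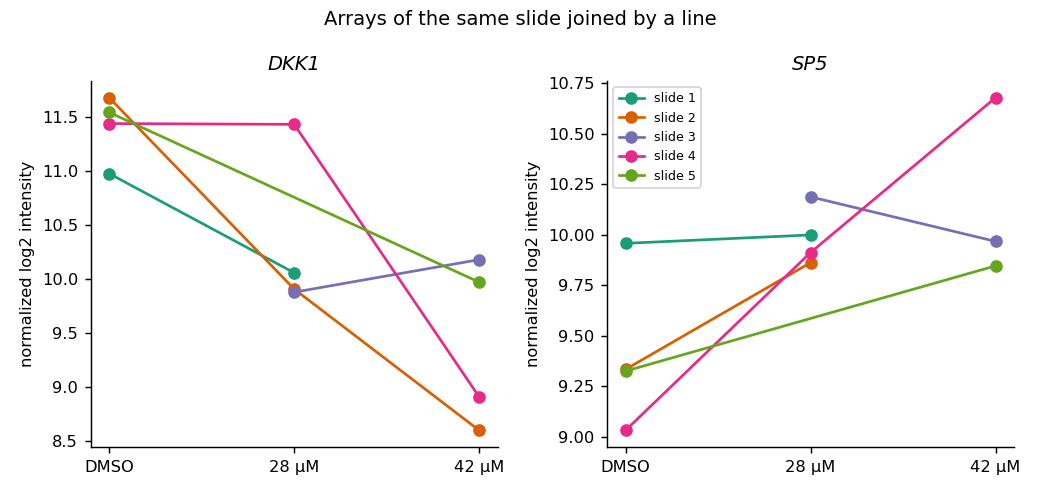
Normalized log2 intensity of DKK1 (left) and of the brightest SP5 probe (right) by group, with arrays of the same slide joined by a line and coloured by slide. DKK1 is lower at 42 µM than on DMSO within all 3 slides that hold both, and slide 4 carries the 28 µM array that reads 11.44. The SP5 value of 42 µM replicate 1, on slide 2, had an outlier flag and is not drawn.

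DKK1 was the only one of the 10 genes past the limits at 42 µM. Over all 24168 gene names, 3.32% were past them at that dose, 1.74% with a higher and 1.58% with a lower level. At 28 µM none of the 10 genes was, and the share over all gene names was 0%. At an unadjusted p below 0.05, with the same limit on size, limma counted 724 gene names at 28 µM, among them DKK1. At 42 µM it counted 1458, among them DKK1 and SP5. The count at 28 µM was 1320 with 28 µM replicate 4 left out, DKK1 and SP5 among them. Without 28 µM replicate 4, DKK1 was past the limits at 28 µM, where the share over all gene names became 2.69%. That array was picked over probes that include the DKK1 probe, so this is no separate evidence for a difference at 28 µM. Between the doses none of the 10 genes and 0% of all gene names were past the limits. At an unadjusted p below 0.05 with the limit on size, limma counted 93 names there, DKK1 among them. With 28 µM replicate 4 left out it counted 76 names, and none of the 10 genes was among them. The median log2 difference of the 10 genes was -0.13 at 28 µM and -0.14 at 42 µM, beside -0.02 over all gene names at both doses. By sign alone, 7 of the 10 were lower at 28 µM and 8 at 42 µM, against 54.6% and 54.3% of all gene names. At 42 µM CTNNB1, TCF7 and RNF43 stood close enough to 0 that leaving out 1 array could turn their sign, the processed signal with quantile normalization turned that of CTNNB1 (to 0.02), and slide as a block turned that of AXIN2. Both doses were set against the same DMSO arrays, so their counts are not separate evidence.

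The transcriptional core of the pathway showed small differences. CTNNB1, which encodes β-catenin, gave 11.98 to 12.77 with its brightest probe on DMSO. The range was 11.77 to 12.38 for 28 µM and 11.95 to 12.78 for 42 µM. The 3 groups overlapped, and the differences were -0.26 (SE 0.20) at 28 µM and -0.00 (SE 0.20) at 42 µM. Its other 2 probes differed from DMSO by -0.03 and -0.20 at 28 µM and by 0.02 and -0.19 at 42 µM. TCF7, a DNA-binding partner of β-catenin, had differences of -0.07 (SE 0.15) and -0.09 (SE 0.15), with 7.87 to 8.11 on DMSO and 7.59 to 8.14 at 42 µM.

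LEF1, the related factor, was dim on these arrays. Probe A_24_P20630 read 6.73, 6.48, 6.61 and 6.80 on DMSO, and 6.30, 6.37, 6.41 and 6.46 at 28 µM. All 4 arrays at 28 µM lay below all DMSO arrays. How many probes of the whole array did so is not given here, so this separation is only a description. The difference was -0.27 (SE 0.12), less than the limit of 0.6, and -0.58 with the processed signal and quantile normalization. At 42 µM the probe read 6.72, 6.32, 6.38 and 6.35, so that replicate 1 reached into the DMSO range, and the difference was -0.21 (SE 0.12), or -0.41 with the processed signal. The other LEF1 probe was well above background on 1 of 12 arrays and was left out.

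The genes that act back on the pathway inside the cell or at the membrane had small differences. AXIN2, the scaffold of the complex that degrades β-catenin and a widely used readout of Wnt activity, read 8.35, 7.63, 7.81 and 7.46 on DMSO with its brightest probe. The lower dose gave 7.65, 7.30, 7.94 and 7.64, and the higher 7.61, 7.66, 7.85 and 7.37. The groups overlapped, with differences of -0.18 (SE 0.19) and -0.19 (SE 0.19), and the highest DMSO value was that of replicate 1. With slide as a block, the difference at 42 µM was 0.02. A second AXIN2 probe, detected on all 12 arrays, gave 0.12 at 28 µM and 0.06 at 42 µM. The dimmest was well above background on 4 of 12 arrays and gave 0.19 and -0.06.

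NKD1, which binds dishevelled and dampens the signal, had differences of -0.10 (SE 0.13) at 28 µM and -0.29 (SE 0.13) at 42 µM, or -0.26 and -0.69 with the processed signal. Its levels were 6.37 to 6.74 on DMSO and 6.22 to 6.48 at 42 µM, near the dim end of the arrays, and its second probe was not well above background on any array. RNF43, a membrane ubiquitin ligase that removes frizzled receptors, gave 9.14 to 9.28 on the DMSO arrays. It gave 9.19 to 9.53 with the lower dose and 8.95 to 9.40 with the higher. Its differences were 0.13 (SE 0.12) and -0.02 (SE 0.12), the latter with DMSO inside the range of the treated arrays.

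LGR5, a receptor for R-spondins and a stem cell marker in several epithelia, read 6.43, 6.66, 6.95 and 7.06 on DMSO. On the 28 µM arrays it read 6.21, 6.58, 6.77 and 6.92, and on those at 42 µM 6.19, 6.32, 6.44 and 6.59. The groups overlapped, and the probe was well above background on 3 of 4 arrays at 42 µM. The differences were -0.15 (SE 0.17) and -0.39 (SE 0.17), or -0.47 and -0.88 with the processed signal and quantile normalization. Within the 3 slides that hold both groups, LGR5 was lower at 42 µM than on DMSO in all 3, by between -0.88 and -0.23.

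SP5 and TBX3, transcription factor genes described as direct targets, were the 2 with a positive difference at 42 µM. SP5, an Sp-family factor, read 9.96, 9.32, 9.03 and 9.33 on DMSO with its brightest probe, A_23_P135381. Its 28 µM values were 9.86, 10.19, 10.00 and 9.91, and on 42 µM replicates 2, 3 and 4 it read 10.68, 9.85 and 9.97, while the spot of replicate 1 had an outlier flag and was dropped. DMSO replicate 1 reached into the range of both doses, and the other 3 DMSO arrays lay below all treated arrays. The differences were 0.58 (SE 0.21) at 28 µM and 0.75 (SE 0.23) at 42 µM, that is 1.49-fold and 1.68-fold higher.

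The 3 SP5 probes did not give one answer. Probe A_32_P183718, at hg19 chr2:171574417-171574476, differed from DMSO by 0.29 (SE 0.30) at 28 µM and 0.25 (SE 0.30) at 42 µM, and A_32_P74615, at chr2:171572975-171573034, by -0.20 (SE 0.13) and -0.30 (SE 0.13). The brightest probe lies at chr2:171574290-171574349, between them. Over the arrays the brightest probe correlated with the other 2 at r = 0.02 and r = -0.12 (n = 11 arrays, a description). Such low agreement was not particular to SP5, as the probe pairs of AXIN2, CTNNB1 and TBX3 had r between -0.47 and 0.21 over 12 arrays, the dim AXIN2 and TBX3 probes included.

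TBX3, a T-box repressor linked to β-catenin in liver tumours, read 9.11, 8.86, 9.40 and 9.25 on DMSO with its brightest probe. Treated arrays gave 8.92, 9.33, 9.92 and 9.29 at 28 µM and 9.04, 9.78, 9.84 and 9.68. At 42 µM replicates 2, 3 and 4 lay above all DMSO arrays and replicate 1 within them, and the differences were 0.21 (SE 0.22) and 0.43 (SE 0.22). The dimmer TBX3 probe was well above background on 7 of 12 arrays and differed by 0.19 and -0.01.

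Across the 12 arrays LGR5 followed DKK1 most closely of the other 9 genes, with r = 0.80, or r = 0.71 after each group mean was removed. NKD1 had r = 0.63, TCF7 r = 0.47 and AXIN2 r = 0.13, or 0.30, 0.56 and -0.21 with group means removed. The brightest SP5 probe ran opposite to DKK1 with r = -0.83 over its 11 arrays, or -0.59 with group means removed. Of all other gene names, the 5 whose brightest probe followed DKK1 most closely were GINS2 (r = 0.983), KIF11 (r = 0.981), CPM (r = 0.980), ASPM (r = 0.979) and CHAF1A (r = 0.978). Their differences at 42 µM ran from -1.36 for KIF11 to -0.82 for CHAF1A. In each of these 5 genes, 28 µM replicate 4 had the highest value of its group and lay within the DMSO range, as in DKK1. The 5 were picked by their correlation with DKK1 over these same arrays, so this likeness and their lower values at 42 µM follow from the choice. The arrays of one group share their treatment, and these correlations are descriptions with no test.

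The rest of the pathway was read from a list of 112 other genes in 7 roles, taken from general knowledge of Wnt signalling. The list was drawn up with earlier results of these arrays known, so its counts and p-values are a description. Of the 112 genes, 111 had a probe and 96 were tested. At 42 µM, 3 fell and 2 rose, with limma's adjusted p and the limits above, against the 3.32% of all gene names. At 28 µM none was called. At an unadjusted p below 0.05 with the limit on size, limma counted KREMEN2 and MYC, against 724 of all 24168 gene names. Between the doses none was called, and none had an unadjusted p below 0.05 with the limit on size. The median log2 fold change of the 96 genes was -0.02 at 28 µM and -0.04 at 42 µM, beside -0.02 over all gene names. The calls at 42 µM depended on single arrays and on the slide: none of the 5 was left with slide as a block, or without DMSO replicate 1, DMSO replicate 2 or 42 µM replicate 2.

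Of 14 tested antagonists, FRZB and KREMEN2 were called lower at 42 µM and none was called higher, against 1.58% and 1.74% of all gene names. By sign alone 11 of the 14 were lower, against 54.3% of all gene names. SOST, named after its value was seen, stood at 0.60 (SE 0.20, limma adjusted p = 0.136) and was not called. Its arrays at 42 µM all lay above all DMSO arrays. FRZB, a secreted protein that binds Wnt ligands, read 8.64, 7.90, 7.92 and 7.66 on DMSO and 7.04, 7.30, 7.33 and 7.30 at 42 µM. All 4 arrays at 42 µM lay below all DMSO arrays, and at that dose FRZB fell by 0.79 on the log2 scale (SE 0.19, limma adjusted p = 0.0425). Its second probe gave -0.52 (limma adjusted p = 0.0649). The values of the first probe at 28 µM, 7.52, 7.20, 7.31 and 7.75, overlapped those on DMSO and gave -0.59 (limma adjusted p = 0.280).

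KREMEN2, a membrane protein that binds DKK1 and with it removes LRP6 from the cell surface, read 8.82, 8.52, 8.47 and 8.33 on DMSO. At 42 µM it read 7.95, 7.71, 7.91 and 7.97, all below DMSO, and it fell by 0.65 (SE 0.16, limma adjusted p = 0.0435). The 28 µM values were 7.74, 7.64, 7.93 and 8.35, with replicate 4 again inside the DMSO range, and the log2 fold change was -0.62 (limma adjusted p = 0.195). The brightest probe of KREMEN1, the related DKK1 receptor, stood at -0.56 for 42 µM (limma adjusted p = 0.0306), under the limit on size. KREMEN1 lies outside the rule for named genes and was picked out after its value was seen. Of the other dickkopf genes, DKK2 had -0.11, DKK3 0.15 and DKK4 -0.13 at 42 µM, none of them called.

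Among 16 tested receptors and coreceptors, only FZD7 was called at 42 µM, against 3.32% of all gene names. FZD7, a frizzled receptor, fell by 0.75 (SE 0.14, limma adjusted p = 0.0159). It read 8.94, 8.94, 8.83 and 8.56 on DMSO and 8.37, 7.84, 8.03 and 8.04 at 42 µM, without overlap. Its values at 28 µM, 8.35, 8.18, 8.32 and 8.54, also lay below all DMSO arrays, with a log2 fold change of -0.47 (limma adjusted p = 0.233). LRP5 and LRP6, the coreceptors that DKK1 blocks, had 0.20 and 0.19 at 42 µM with their brightest probes and were not called.

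DVL2 is a dishevelled protein that relays the signal from frizzled receptors. It was the 1 called of 17 tested genes of the cytoplasmic relay and destruction complex, against 3.32% of all gene names. It read 9.81, 10.08, 9.84 and 10.12 on DMSO and 10.90, 10.80, 10.58 and 10.91 at 42 µM, and rose by 0.84 (SE 0.16, limma adjusted p = 0.0168). The values at 28 µM were 10.75, 10.72, 10.37 and 10.06, and only replicate 4 lay within the DMSO range, with a log2 fold change of 0.51 (limma adjusted p = 0.252). APC, AXIN1 and GSK3B, the core of the destruction complex, had -0.03, 0.29 and 0.26 at 42 µM and were not called.

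MYC is a growth-promoting transcription factor described as a Wnt target in colon and regulated by many other inputs. It was the 1 called of 16 other described targets, against 3.32% of all gene names. Its brightest probe, A_23_P215956, read 11.43, 11.55, 11.66 and 11.37 on DMSO and 13.18, 13.01, 12.37 and 12.25 at 42 µM, and rose by 1.20 (SE 0.24, limma adjusted p = 0.0216). With 28 µM the probe gave 12.92, 12.71, 12.70 and 11.83, all above DMSO, with a log2 fold change of 1.04 (limma adjusted p = 0.183). Another MYC probe, A_24_P178011, detected on all 12 arrays, gave -0.19 at 42 µM. The remaining one was well above background on 3 of 12 arrays, and its 0.13 was measured near the floor. CCND1, another described target, had -0.03 with its brightest probe.

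No gene was called at 42 µM among 14 tested ligands and ligand-release genes, 5 genes of the R-spondin axis or 14 nuclear partners. Their largest log2 fold changes belonged to PORCN, which acylates Wnt proteins, at 0.38 (limma adjusted p = 0.220), LGR4, an R-spondin receptor, at -0.13 (limma adjusted p = 0.668), and TLE3, a corepressor of TCF factors, at -0.56 (limma adjusted p = 0.0912). Without 28 µM replicate 4, DVL2, KREMEN2, MYC and TLE3 were called at 28 µM, 4 of the 96, against 2.69% of all gene names. These calls are a description, since that array was picked for lying near DMSO. Within the 3 slides that hold a DMSO and a 42 µM array, FRZB, KREMEN2 and FZD7 were lower and DVL2 and MYC higher at 42 µM in all 3. With slide as a block the values at 42 µM were -0.69 for FRZB, -0.58 for KREMEN2, -0.71 for FZD7, 0.75 for DVL2 and 1.25 for MYC.

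**Figure D3:**
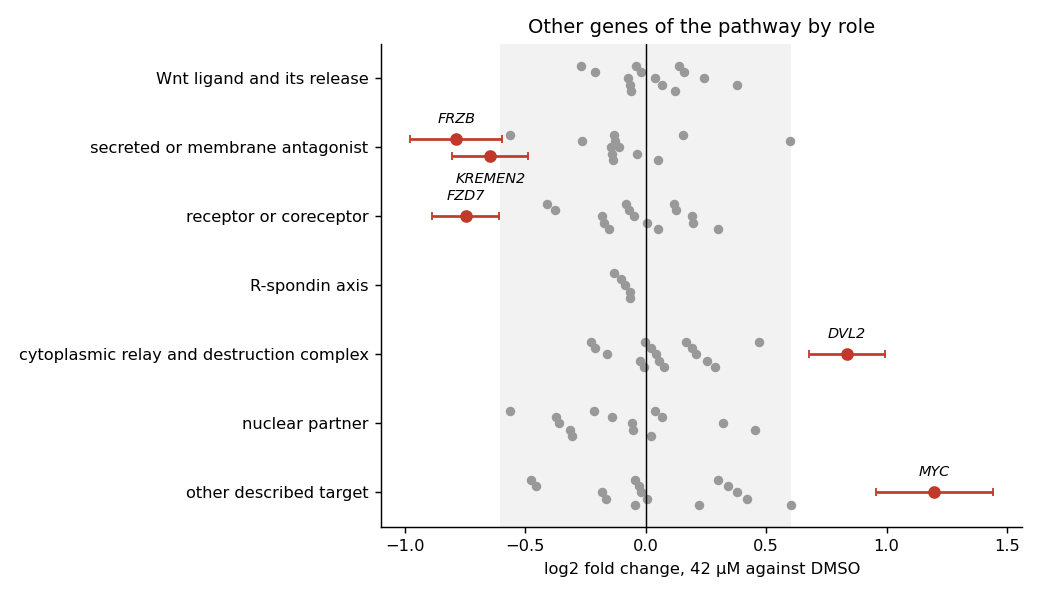
Log2 fold change at 42 µM against DMSO of the brightest probe of each of the 96 tested genes of the pathway outside the 10, by role; red points with the SE of the fit are the 5 called genes, and the grey band spans values under 0.6. FRZB, KREMEN2 and FZD7 lie to the left and DVL2 and MYC to the right, and all uncalled genes lie within the band apart from SOST and BAMBI at 0.60 on its edge.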

How the data were processed

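Total RNA of 12 HuH-7 cultures was measured on Agilent 4x44K one-colour arrays. The authors deposited the scanner output of Agilent Feature Extraction (10.7.3.1 in the submitters' processing notes), with mean and local background intensity per spot, and a table of log2 values that they had background-corrected (Edwards) and quantile normalized. The scanner files place probes on hg19, and gene names are those of the array design. Groups and replicate numbers were taken from the labels, which call the replicates biological.

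Here control spots and outlier-flagged spots were left out, and the Edwards correction and quantile normalization were applied with limma 3.58.1 in R 4.3.3. Probes well above background on at least 2 arrays of 1 group were kept, 33467 of 41000. One linear model of the 3 groups over the 12 arrays was fitted with limma's lmFit and eBayes, and its two-sided tests had Benjamini-Hochberg adjustment over all tested probes. A gene is called when a probe passes adjusted p 0.05 together with a log2 change of 0.6 or more, and its brightest tested probe gives its values. The procedure was tested on simulated data. Precision is limited by the number of arrays, and no array had a saturated gene spot.

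The 10 genes, the pathway list and the markers were chosen with earlier results of these data known. Named were all 10 genes, the called genes of each role or otherwise its largest change, and the 5 genes most correlated with DKK1. LRP5, LRP6, SOST, KREMEN1, the dickkopf and destruction complex genes and CCND1 were added as context. Alternatives covered the background correction, the normalization, the deposited log2 values, the filter, slide and replicate blocks, the groups in the model, the fold limit and leaving out each array. Promoters came from RefSeq tables of GRCh38.p14. Figures were drawn with Python 3.11.15 and matplotlib 3.10.9.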

Additional observations from a re-analysis of the deposited data

Results flagged for a closer look

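In 5 of 74 sets of 4 arrays, 1 array lay far from the other 3, and chance alone gives this in about 1 set of 20. DKK1 read 11.44 on 28 µM replicate 4, against 9.88 to 10.06 on the other 3 arrays at that dose. The dimmest AXIN2 probe, A_23_P159395, read 6.218 on DMSO replicate 3, against 5.94 to 5.99. LEF1 read 6.715 on 42 µM replicate 1, against 6.32 to 6.38. The dimmer TBX3 probe, A_23_P383819, read 7.346 on 28 µM replicate 1, against 5.97 to 6.16. FRZB read 7.041 on 42 µM replicate 1, against 7.30 to 7.33. The cause was not tested in any of the 5.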

How the results depend on the processing

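DKK1 kept its direction at both doses under all 23 alternatives: its difference ran from -2.25 to -1.73 at 42 µM and from -1.46 to -0.95 at 28 µM when single arrays were left out, and from -2.24 to -1.97 and -1.20 to -1.04 otherwise. Among the 10 genes, the count past the limits at 42 µM was 1 and became 0 with slide as a block, and 0 to 1 without single arrays, being 0 without DMSO replicate 2, DMSO replicate 4 or 42 µM replicate 2. At 28 µM it was 0 and ran from 0 to 1, being 1 without 28 µM replicate 4. Of the other pathway genes, 5 were called at 42 µM. The count was 2 with the processed signal quantile normalized, 1 with it scaled to the 75th percentile, 3 with Edwards values scaled to the 75th percentile, 0 with slide as a block, 1 with a fold limit of 1 and 0 to 5 without single arrays. At 28 µM it was 0 to 4 without single arrays. Over all probes, 885 were called at 42 µM, 442 with the processed signal quantile normalized, 1 with slide as a block, 366 with a fold limit of 1, and 0 to 1221 without single arrays. The count was 0 without DMSO replicate 2 or 42 µM replicate 2. At 28 µM it was 0, and 0 to 719 without single arrays, 719 being without 28 µM replicate 4. The cause of these shifts was not tested. Replicate numbers were not taken to pair arrays, since same-numbered arrays had r from -0.46 to 0.62, over 0.1 in 7 of 12 pairs, and 5 of 12 arrays were closest to their own number. With the replicate block, 1366 probes were called at 42 µM and 2 at 28 µM. Probes of LEF1, LGR5 and NKD1 lie near background, where the processed signal with quantile normalization moved LEF1 to -0.58 at 28 µM and -0.41 at 42 µM, LGR5 to -0.47 and -0.88, and NKD1 to -0.26 and -0.69.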
